A study of Rattus norvegicus with 24 samples.

Results

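9 genes that carry tryptophan to NAD, or that recycle and clear nicotinamide, were followed in the livers of 24 male rats. They were chosen by name, and each was read by the probe set that carries its single symbol. Where a gene has several probe sets the one with the highest mean over the 24 arrays was to be taken, but each of the 9 genes had 1 probe set, so this rule selected nothing. The 9 stand among 22093 genes with a single symbol, of which 19686 passed a filter on low intensities, and all 9 passed it on all 24 arrays. The animals were RccHan Wistar rats, 7 to 8 weeks old when assigned to a group, and 1 array was analysed per rat. Metformin rats received 800 mg/kg by gavage on each of 1, 3 or 14 consecutive days, and control rats received only the vehicle, a mixture of ethanol, Kolliphor HS 15 and tap water, for the same days. Each of the 6 groups held 4 rats. Metformin is a biguanide that lowers blood glucose. Values are log2 intensities, so that a difference of 1 is a doubling of the deposited intensity, and differences run as metformin minus control unless stated otherwise. Intensities of different genes depend on their probes and are not set against each other.

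In liver, tryptophan that is not used for protein is opened by Tdo2, freed of its formyl group by Afmid, and passed through Kmo, Kynu and Haao to an unstable intermediate. At that point the path divides: the decarboxylase Acmsd sends the intermediate towards complete oxidation, and what escapes it closes to quinolinate, which Qprt turns into a precursor of NAD. Nampt returns used nicotinamide to the NAD pool, and Nnmt methylates nicotinamide, with S-adenosylmethionine as the donor, so that it leaves the body.

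Acmsd, the enzyme that draws tryptophan carbon away from NAD, fell in metformin livers, and it was the only 1 of the 9 genes called in any comparison of metformin with control. Averaged over the 3 days, it fell by 0.93 ± 0.17 on the log2 scale (SE, 4 rats in each of 6 groups), which is 1.90-fold lower (limma, adjusted p = 0.00541). That mean contains day 1, whose lower value was known when the genes were chosen. In this mean effect 3.23% of all tested genes were called, and 0.432% were called lower. The other 8 genes had mean differences between -0.37 (Afmid) and -0.01 (Kynu), none called. A called gene is one with a Benjamini-Hochberg adjusted p under 0.05 over all 19686 tested genes. Within single days none of the 9 was called, against 0.0152% of tested genes called on day 1, 0.254% on day 3 and 3.29% on day 14. An unadjusted p under 0.05 was reached by 1 of the 9 on day 1, 1 on day 3 and 3 on day 14, against 8.22%, 13.6% and 16.8% of tested genes.

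Promoter sequences show what lies before the genes at the entry of the path. RefSeq promoter windows of the GRCr8 rat assembly, from 250 bases before to 50 after the gene's start, were matched for 6 of the 9 genes (Tdo2, Afmid, Kmo, Kynu, Haao and Qprt). The Tdo2 window lies at chr2:169585537-169585836 on the minus strand, and capitals mark a TATAAA at -228 and an ATTGG, which is CCAAT on the other strand, at -74, counted from the start. The Afmid window lies at chr10:103544624-103544923 on the plus strand, and its capitals mark the 96 bases between the start of Afmid and the start of Tk1, the thymidine kinase of dividing cells, which is read in the opposite direction.
Tdo2: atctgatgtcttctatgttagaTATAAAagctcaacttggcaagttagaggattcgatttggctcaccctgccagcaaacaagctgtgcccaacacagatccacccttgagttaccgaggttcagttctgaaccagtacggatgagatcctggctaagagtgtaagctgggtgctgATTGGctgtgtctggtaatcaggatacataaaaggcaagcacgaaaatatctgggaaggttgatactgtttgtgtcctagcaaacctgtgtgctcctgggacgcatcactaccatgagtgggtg
Afmid: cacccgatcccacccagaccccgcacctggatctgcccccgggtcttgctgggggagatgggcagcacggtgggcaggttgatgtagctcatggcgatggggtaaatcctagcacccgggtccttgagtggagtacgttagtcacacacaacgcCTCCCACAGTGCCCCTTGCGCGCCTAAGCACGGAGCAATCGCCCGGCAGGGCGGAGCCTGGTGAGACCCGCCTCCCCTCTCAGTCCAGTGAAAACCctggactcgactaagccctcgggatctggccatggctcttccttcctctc
Of 33469 such windows, 14.2% held TATAAA and 37.5% held CCAAT on either strand. Among the 6 matched genes, CCAAT stood before 3 (Tdo2, Kmo and Kynu), and AGGTCA, bound by many nuclear receptors and present in 16.2% of windows, before Haao alone. TGTTCT, part of the glucocorticoid receptor's site and present in 20.7% of windows, was also found before Haao alone. None of the 6 held GTTAAT, the core of the HNF1 site (7.45% of windows). None held GTAAACA, the forkhead site (3.78%). The letters TGACGT of cAMP-responsive sites (7.94%) and the E-box CACGTG (6.42%) were not found in them either. Both strands were searched and none of the matches in these 6 windows overlapped. A match is a description of the letters only.

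**Figure D1:**
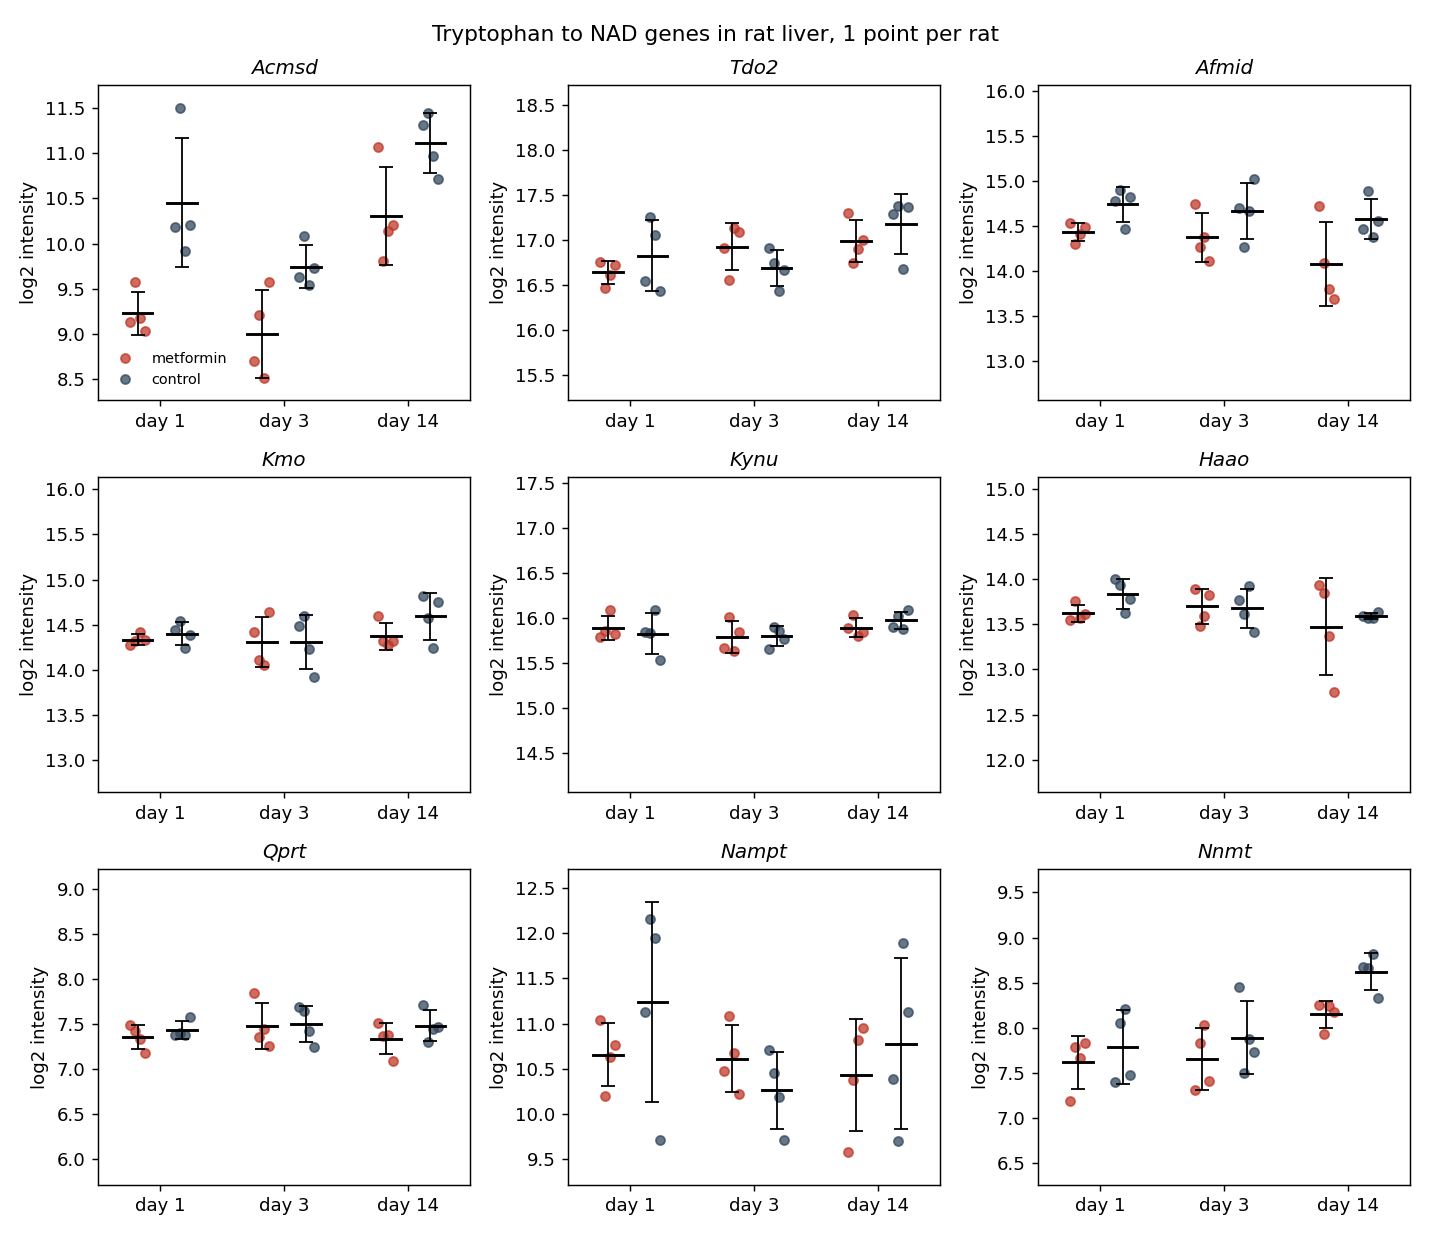
Log2 intensity (y axis, each panel spanning 3.5 log2 units) of the 9 genes on days 1, 3 and 14 (x axis), with 1 point per rat, metformin in red left of control in grey, and bars for the mean and SD of 4 rats. The mean of Acmsd in metformin rats is below that in control rats on every day, at 9.23 against 10.46 on day 1, while the means of Kynu and Qprt differ by at most 0.15.

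At the branch point, Acmsd separated the groups most clearly on day 1. The 4 metformin livers had log2 intensities of 9.13, 9.57, 9.17 and 9.03, against 10.19, 11.51, 9.92 and 10.21 in the 4 control livers. Every metformin liver lay below every control liver, an arrangement found with metformin lower in 1.72% of tested genes that day. Since this difference of -1.23 was known when the genes were chosen, it is given as a description. On day 3 the metformin livers had 8.69, 9.21, 8.51 and 9.57, and the control livers 9.62, 10.08, 9.54 and 9.73. 3 of the 4 metformin livers lay below all controls (0 of the 9 genes had groups that did not overlap with metformin lower that day, against 3.41% of tested genes), and the difference of -0.75 ± 0.30 was not called (adjusted p = 0.281 in limma). On day 14 the values were 11.08, 9.80, 10.14 and 10.21 in metformin livers, against 11.31, 11.45, 10.97 and 10.72 in control livers. Metformin rat 1 lay within the control range and the other 3 below it, and the difference of -0.81 ± 0.30 was not called (adjusted p = 0.154). Without metformin rat 1 the difference on day 14 was -1.06 and was called (adjusted p = 0.0416). This was the only call in 8 fits that each left out 1 rat of day 14. The others came up to -0.64, with adjusted p up to 0.327 in limma. Over these fits 153 to 968 of the tested genes were called.

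The mean effect on Acmsd contains day 1, so it was also taken over days 3 and 14 alone, an alternative chosen after the data were seen. Acmsd then fell by 0.78 ± 0.21, with a 95% confidence interval from -1.22 to -0.34 (adjusted p = 0.0294 in limma), and 1.81% of tested genes were called lower in that comparison. Over all 35 alternatives tried for the 3-day mean, 24 of which left out 1 rat each, the effect lay between -1.01 and -0.78 and stayed called (highest adjusted p = 0.0294). All but the fit of days 3 and 14 still contained day 1, so their calls are not separate support. The fit of days 3 and 14 is not separate support either, since it was chosen after the data were seen. No difference of the effect between days was called for any of the 9 genes (0% of tested genes for day 3 minus day 1, 1.66% for day 14 minus day 1 and 0.00508% for day 14 minus day 3). For Acmsd it was 0.48 ± 0.42 for day 3 minus day 1 (adjusted p = 0.716) and 0.42 ± 0.42 for day 14 minus day 1 (adjusted p = 0.742). Without control rat 2 of day 1 these were 0.13 for day 3 minus day 1 and 0.07 for day 14 minus day 1. In bulk liver, fewer cells that make a transcript and less of it in each cell cannot be told apart.

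Qprt, which takes quinolinate into the NAD pathway on the other side of the branch, had no called difference. Its log2 intensity lay between 7.18 and 7.49 in metformin and between 7.38 and 7.58 in control livers on day 1. The mean effect over the 3 days was -0.08 ± 0.07, with a 95% interval from -0.23 to 0.07, while the interval of Acmsd ran from -1.29 to -0.57. The difference between the genes was not tested.

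**Figure D2:**
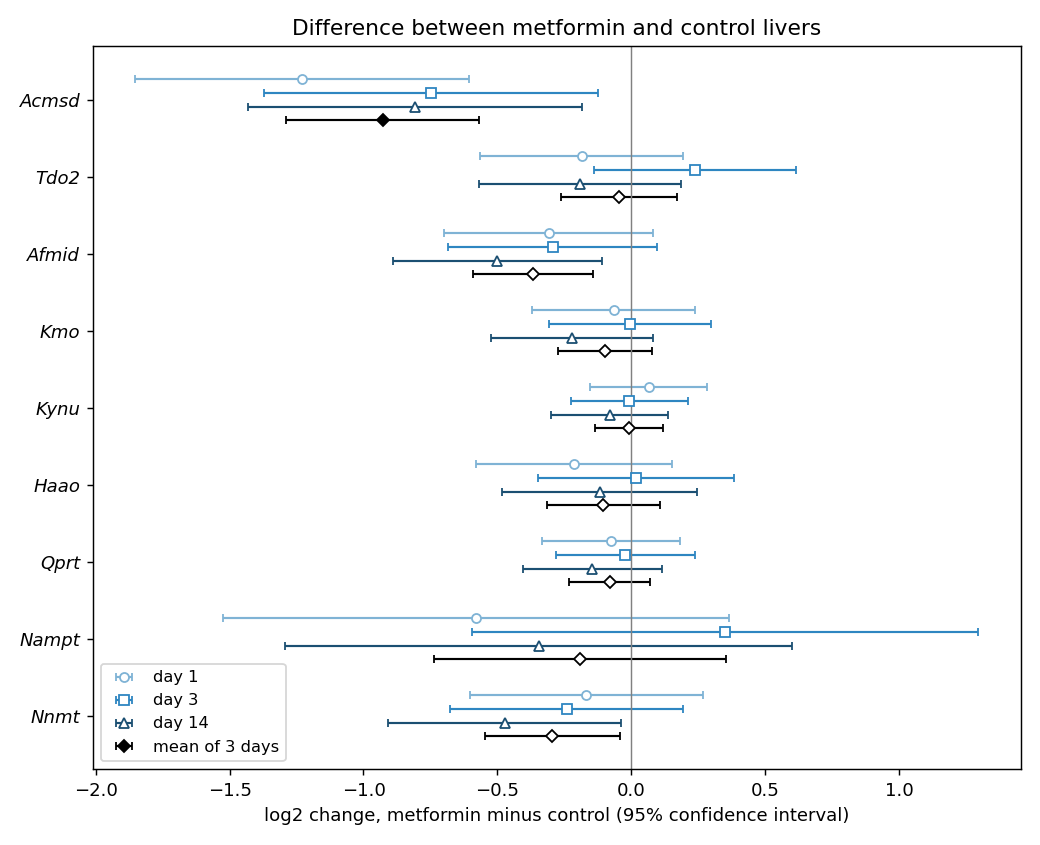
Log2 change of each gene (y axis) as metformin minus control with its 95% confidence interval (x axis), for days 1, 3 and 14 and for the mean of the 3 days, each from 4 rats per group. A filled marker is a called difference: only the mean effect of Acmsd, at -0.93, is filled.

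Of the 5 enzymes that lead to the branch, Afmid stood closest to a call. Its log2 intensities on day 14 were 14.73, 14.09, 13.80 and 13.69 in metformin livers, against 14.47, 14.90, 14.38 and 14.56 in control livers. Metformin rat 1 lay inside the control range and the other 3 below all controls. The difference was -0.31 ± 0.19 on day 1, -0.29 ± 0.19 on day 3 and -0.50 ± 0.19 on day 14 (adjusted p = 0.762, 0.497 and 0.159). The mean effect, -0.37 ± 0.11, did not pass (limma, adjusted p = 0.0681). It was called in 3 of the 24 fits that left out 1 rat, with adjusted p up to 0.125 in the others. The 3 were without control rat 2 of day 3 (-0.41, adjusted p = 0.0394), without metformin rat 1 of day 3 (-0.41, adjusted p = 0.031) and without metformin rat 1 of day 14 (-0.44, adjusted p = 0.00928). Over the 24 fits 393 to 945 of the tested genes were called. Without that last rat the day 14 difference was -0.72 and was called (adjusted p = 0.0154). This was the only call for day 14 in 8 such fits, with adjusted p up to 0.397 in the others.

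Tk1, whose start faces away from that of Afmid across those 96 bases, was read beside it. In control livers Tk1 fell by 2.26 for day 14 minus day 1 (limma, adjusted p = 3.556e-04), with means of 8.85 ± 0.25 on day 14 and 11.11 ± 0.55 on day 1 (SD, n = 4 each). Afmid differed by -0.17 ± 0.19 in the same comparison (adjusted p = 0.872). Between metformin and control, Tk1 had a mean difference of -0.02, which was not called. Whether Afmid and Tk1 differed was not tested.

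Tdo2, the oxygenase that commits tryptophan to this path, showed no called difference. On day 3, 3 of 4 metformin livers lay above all controls, at 16.92, 16.56, 17.14 and 17.09 against 16.91, 16.74, 16.43 and 16.66, a difference of 0.24 ± 0.18 (adjusted p = 0.57). On days 1 and 14 the differences were -0.18 and -0.19, so that the mean effect was -0.05 with a 95% interval from -0.26 to 0.17. Kmo, the hydroxylase of the outer mitochondrial membrane, had a mean effect of -0.10 (interval -0.27 to 0.08). Kynu, the kynureninase, had the narrowest spread within groups of the 9, an SD of 0.148, and a mean effect of -0.01 (interval -0.13 to 0.12). Haao, which makes the intermediate that Acmsd decarboxylates, had a mean effect of -0.10 (interval -0.32 to 0.11). Its 4 metformin livers of day 14 spread over 13.93, 13.85, 13.38 and 12.75, on both sides of 4 control livers that lay between 13.57 and 13.64.

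Nampt, the first enzyme of nicotinamide recycling, varied most between rats of the same group. Its SD within groups was 0.701, above that of 99.31% of tested genes. On day 1 the metformin livers had 11.04, 10.20, 10.63 and 10.76, against 11.13, 12.15, 11.95 and 9.71 in control livers, so the metformin values lay inside the control range. The differences were -0.58 ± 0.46, 0.35 ± 0.46 and -0.35 ± 0.46 on days 1, 3 and 14, none called (smallest adjusted p = 0.75). Single rats decided their size: the difference lay between -1.09 (without control rat 4) and -0.27 (without control rat 2) on day 1, and between 0.16 (without control rat 4) and 0.50 (without control rat 1) on day 3. On day 14 it lay between -0.71 (without control rat 2) and 0.03 (without control rat 3). With 4 rats per group, the 95% interval of its mean effect ran from -0.74 to 0.35 and included both falls and rises.

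Nnmt, which clears nicotinamide by methylation, had its highest group means on day 14, at 8.15 ± 0.15 in metformin and 8.62 ± 0.21 in control livers (SD, n = 4 each). The metformin livers of day 14 had log2 intensities of 8.25, 7.93, 8.25 and 8.17, against 8.68, 8.66, 8.81 and 8.33 in control livers. All 4 metformin livers lay below all 4 controls, as in 3.34% of tested genes, but the difference of -0.47 ± 0.21 was not called (limma, adjusted p = 0.246). On days 1 and 3 it was -0.17 and -0.24, with overlapping groups, and the mean effect was -0.29 ± 0.12 (adjusted p = 0.216).

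On day 14 all 9 differences were below 0, with a median of -0.22, while 47.33% of all tested genes were below 0 and their median was 0.01. The 3 with an unadjusted p under 0.05 were Acmsd, Afmid and Nnmt. On day 3, 6 of 9 were below 0 with a median of -0.01, close to the 57.29% and -0.03 of all tested genes. On day 1, 8 of 9 were below 0 with a median of -0.18, where all tested genes had 44.41% and 0.02. On day 14 Haao and Nampt turned above 0 when 1 rat was left out (Haao at 0.12 without metformin rat 4, Nampt at 0.03 without control rat 3). Beside these values, the summed intensity of 9 hepatocyte markers on day 14 lay between 3414480 and 3744740 in metformin livers and between 3777530 and 3839310 in control livers. Of these 9 markers 7 were below 0 that day, with a median of -0.09 and none called, and no test of the sum was run. The sum is carried by bright probe sets such as that of Alb, at a mean log2 intensity of 19.85, where the highest intensity on any array was 994415. Their part in the differences of the 9 pathway genes was not tested. Metformin rat 1 of day 14 was the highest of its group in 7 of the 9 genes (all but Kynu and Nampt).

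Among the control animals, Acmsd and Nnmt differed between days. Acmsd rose by 1.37 ± 0.30 for day 14 minus day 3 (limma, adjusted p = 0.0261), with a mean of 11.11 ± 0.33 on day 14 and 9.74 ± 0.24 on day 3 (SD, n = 4 each), where 0.132% of tested genes were called higher. The 4 control livers of day 14 all lay above the 4 of day 3. Nnmt rose by 0.84 ± 0.21 for day 14 minus day 1 (adjusted p = 0.0393), at 8.62 ± 0.21 on day 14 and 7.79 ± 0.41 on day 1, where 0.259% were called higher. No other difference between control groups was called for the 9 genes, and for day 3 minus day 1 0% of all tested genes were. The Acmsd call was lost without control rat 1, 3 or 4 of day 3 (differences 1.33, 1.30 and 1.36) and without control rat 1, 2 or 3 of day 14 (1.30, 1.26 and 1.42), with adjusted p up to 0.106. The Nnmt call was lost without control rat 1 or 4 of day 1 (0.71 and 0.73) and without control rat 1, 2 or 3 of day 14 (0.82, 0.82 and 0.77), with adjusted p up to 0.172. Without control rat 1 of day 3, Nnmt was called for day 14 minus day 3 (0.92, adjusted p = 0.0369). Age, the number of vehicle doses and anything else that differed between the days cannot be told apart.

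The order of the 6 group means puts these shifts side by side. For Acmsd it ran control day 14 (11.11), control day 1 (10.46), metformin day 14 (10.31), control day 3 (9.74), metformin day 1 (9.23) and last metformin day 3. Neighbours among its upper 3 means, and its lower 2 means, differed by less than the larger SD of each pair. Metformin day 14 stood above control day 3 by 0.561, more than the larger SD of 0.544. Control day 3 stood above metformin day 1 by 0.52, more than the larger SD of 0.24. For Nnmt control day 14 stood first by 0.47, more than the larger SD of 0.207, and the other 5 groups followed with gaps inside their spread. For Afmid the 3 control means (14.74, 14.67 and 14.58) preceded the 3 metformin means (14.44, 14.38 and 14.08), but no neighbouring pair differed by more than its SD. In Tdo2, Kmo, Kynu, Haao, Qprt and Nampt no neighbouring pair did so either.

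**Figure D3:**
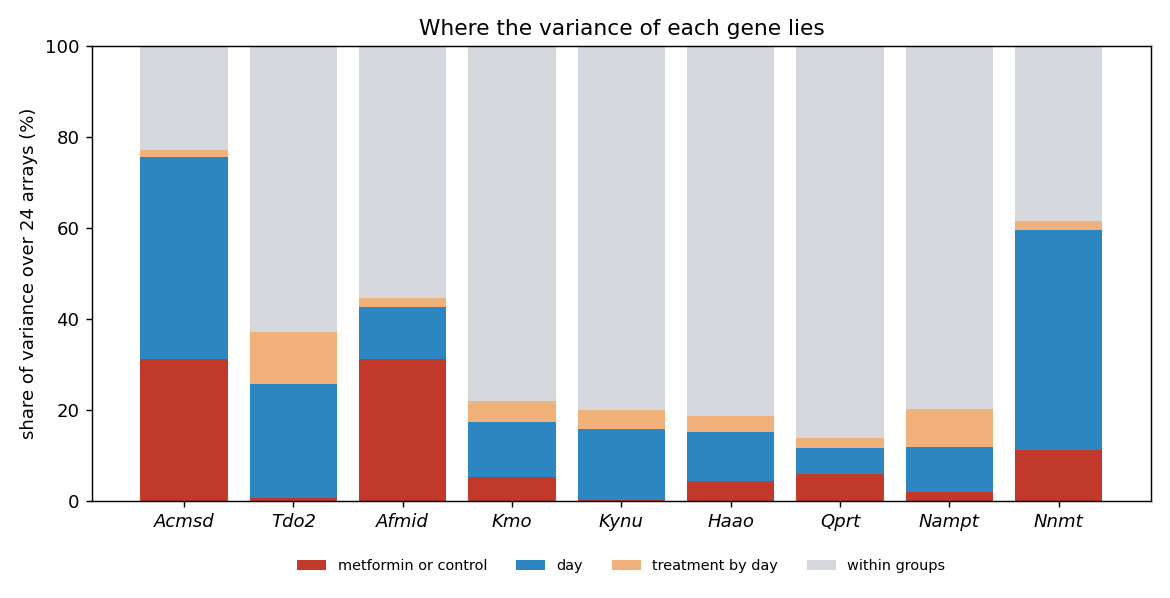
Share of each gene's variance over the 24 arrays (y axis, percent) that lies between metformin and control, between days, in their interaction and within groups. Treatment holds 31.1% for Acmsd and 31.2% for Afmid, and day holds 44.4% for Acmsd and 48.4% for Nnmt. The treatment share of Acmsd contains day 1, whose lower value was known when the genes were chosen.

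Split by source, treatment held 31.1% of the variance of Acmsd and 31.2% of that of Afmid, against a median of 3.12% over all tested genes. The share of Acmsd contains day 1, whose lower value was known when the genes were chosen, so it is given as a description. Day held 44.4% for Acmsd and 48.4% for Nnmt, against a median of 13.9%. Apart from Acmsd and Nnmt, the genes varied mainly within groups, from 55.4% for Afmid and 62.9% for Tdo2 up to 86.2% for Qprt. The median within-group share over all tested genes was 67.1%. Across 36 pairs, deviations from the group means over 24 arrays had Pearson correlations from -0.48 (Afmid and Nampt) to 0.49 (Afmid and Haao), and none passed a permutation test within groups after Benjamini-Hochberg adjustment over the pairs (smallest adjusted p = 0.343 for r and 0.472 for Spearman's rho). For Afmid and Nampt, rho was -0.44 (permutation p = 0.0222 for r and 0.0565 for rho), and r was -0.41 without the 2 arrays farthest from the median.

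The genes whose log2 intensity followed a member most closely over the 24 arrays are given as a description. For Acmsd they were Ass1, the argininosuccinate synthase of the urea cycle (r = 0.80), Ralgdsl6 (0.79) and the acute phase protein Orm1 (0.75). Within groups these correlations were 0.35, 0.63 and 0.43. For Nnmt they were Crem, a regulator of cAMP-responsive genes (r = 0.79), Fam117b (0.78) and the RNA-binding protein Celf2 (0.77). Afmid was followed by the sphingomyelin synthase Sgms2 (0.88), the prostaglandin transporter Slco2a1 (0.80) and Ndrg2 (0.80), with 0.81, 0.73 and 0.64 within groups. Tdo2 was followed by Crebl2 (0.80), Kmo by Hsd17b11 (0.78), Kynu by Sult1c3 (0.69), Haao by Hdac8 (0.84), Qprt by Mpp7 (0.76) and Nampt by Itga1 (0.70). None of the 9 genes was among the 3 closest to another. The arrays share a normalization, which can itself tie probe sets together.

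Beyond the 9 genes, 65 of 70 other genes of tryptophan and NAD metabolism on 8 lists were tested, and 5 were called on day 14. Those 3 rises and 2 falls stand against 2.07% and 1.22% of all tested genes called higher and lower. Of these 65 none was called by limma on day 1 or day 3, against 0.0152% and 0.254% of all tested genes. An unadjusted p under 0.05 was reached by 6, 7 and 14 of the 65 on days 1, 3 and 14. Over all tested genes the shares were 8.22%, 13.6% and 16.8%. Median differences over the 65 were 0.02, 0.03 and -0.01 on days 1, 3 and 14, against 0.02, -0.03 and 0.01 over all tested genes. No gene of the kynurenine branches (8 tested, among them Ido1, Ido2 and Aadat), of the glutarate arm that continues from Acmsd (5 tested), of NAD phosphorylation, reduction and mitochondrial import (4 tested) or of tryptophan transport (5 tested) was called between metformin and control.

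Among 9 genes of NAD synthesis from nicotinate, nicotinamide and its riboside, the adenylyl transferases Nmnat1 and Nmnat3 rose on day 14. These enzymes make NAD from its mononucleotide, Nmnat1 in the nucleus. Nmnat1 had 6.55, 6.66, 6.36 and 6.29 in metformin livers, against 5.96, 6.22, 5.91 and 5.96 in control livers, a difference of 0.45 ± 0.12 (adjusted p = 0.0363). Nmnat3 had 7.75, 7.60, 7.47 and 7.60 in metformin livers, against 7.18, 7.26, 7.29 and 7.11 in control livers, a difference of 0.40 ± 0.10 (adjusted p = 0.0384). In both, all metformin livers lay above all controls, as in 5.07% of all tested genes that day. Nmnat1 was also higher in the mean effect, by 0.31 ± 0.07 (limma, adjusted p = 0.0146), where 3.23% of all tested genes were called. That call was lost when every probe set was tested (adjusted p = 0.0506). Nmnat1 lost its call without control rat 1, 3 or 4 or metformin rat 1 or 2 (0.43, 0.41, 0.43, 0.42 and 0.39, adjusted p up to 0.119). Nmnat3 lost its call without control rat 1, 2 or 4 or metformin rat 1, 2 or 4 (0.39, 0.41, 0.36, 0.35, 0.40 and 0.40, adjusted p up to 0.119).

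Of 15 NAD users tested, 1 rose and 1 fell on day 14. Parp1, which builds ADP-ribose chains at DNA breaks, had 8.46, 8.76, 8.42 and 8.48 in metformin livers, against 7.98, 7.86, 8.21 and 8.00 in control livers (0.52 ± 0.13, adjusted p = 0.0361). Sirt2, a mainly cytosolic deacetylase, had 10.39, 10.22, 10.04 and 9.78 in metformin livers, against 10.58, 10.52, 10.42 and 10.54 in control livers (-0.41 ± 0.10, adjusted p = 0.0266). In both genes the groups did not overlap. Neither did those of Parp2, named after its values were seen, at a difference of 0.23 ± 0.07 that was not called (adjusted p = 0.103). Over the 8 lists, 4 of 65 genes had all metformin livers above all controls on day 14 and 5 had all below, against 5.07% and 3.34% of all tested genes. The calls were lost for Parp1 without control rat 1, 2 or 4 or metformin rat 2, 3 or 4 (0.51, 0.46, 0.51, 0.44, 0.55 and 0.53, adjusted p up to 0.112). For Sirt2 they were lost without control rat 1, 2 or 4 or metformin rat 3 or 4 (-0.39, -0.41, -0.40, -0.38 and -0.30, adjusted p up to 0.0972).

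On the list of nicotinamide disposal and methyl supply, Mat1a, which makes the S-adenosylmethionine that Nnmt uses, fell on day 14. It had 17.51, 17.09, 17.63 and 17.56 in metformin livers, against 18.09, 17.98, 18.08 and 18.23 in control livers, a difference of -0.65 ± 0.11 (adjusted p = 0.00384). This call held without any single rat. Gnmt, which consumes S-adenosylmethionine to methylate glycine, fell by 0.79 ± 0.20 in the mean effect (limma, adjusted p = 0.033). In the mean effect 1 of the 65 genes on the 8 lists was called higher and 1 lower. Of all tested genes 3.23% were called in it, and 0.432% were called lower. Leaving out any of 15 single rats took the adjusted p of Gnmt to between 0.0508 and 0.0667, with differences from -0.80 to -0.71.

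Of 14 regulators tested none was called within a day. The smallest p on day 1 belonged to Ppara, the fatty acid receptor (0.98 ± 0.20, adjusted p = 0.119), Per1 of the circadian clock (-0.69, adjusted p = 0.33) and Nr3c1, the glucocorticoid receptor (-0.52, adjusted p = 0.443). On day 3 Per1 (0.66, adjusted p = 0.191), the nucleoside phosphorylase Pnp (-0.27, adjusted p = 0.228) and the thiolase Acat1 (0.37, adjusted p = 0.238) had the smallest p on the 8 lists, without passing.

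**Figure D4:**
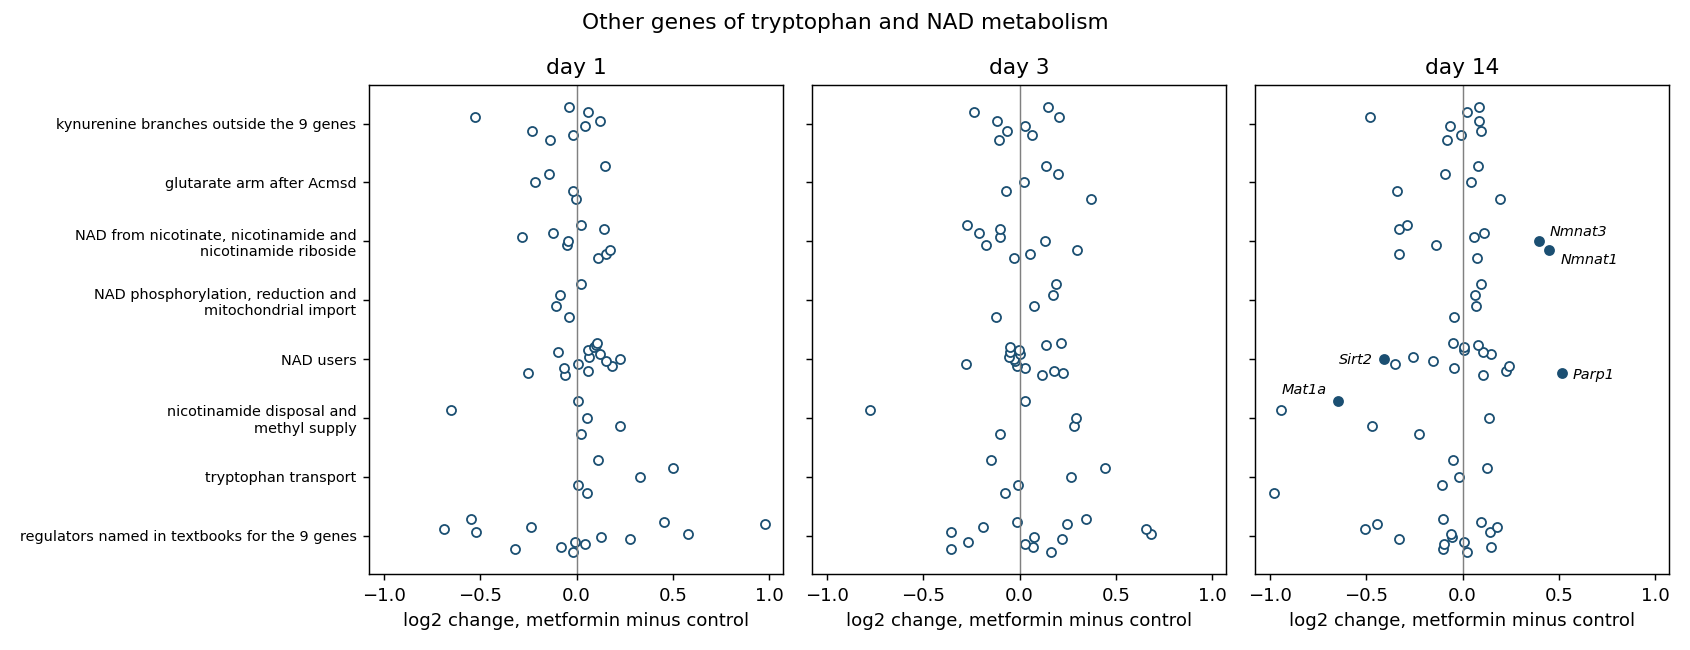
Log2 change as metformin minus control (x axis) for 65 other genes of tryptophan and NAD metabolism on 8 lists (y axis), 1 panel per day. Filled points are called: there are none on days 1 and 3, and Nmnat1, Nmnat3, Parp1, Sirt2 and Mat1a on day 14.

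Median log2 intensities of the arrays lay between 4.80 and 5.11, and correlations between arrays of a group were 0.989 or more. No array was identical to another. The deposited values had already been normalized between arrays, so these figures do not measure array or RNA quality. All 9 hepatocyte markers with a probe set were above the filter in these liver samples. The differences of Kupffer cell and macrophage markers were above 0 in 11 of 12 genes on day 1 (median 0.15), and below 0 in 12 of 12 on day 3 (median -0.49) and on day 14 (median -0.19), none called. Markers of stellate cells and fibroblasts were below 0 in 9 of 9 genes on day 3 (median -0.17), and those of sinusoidal endothelium in 8 of 8 on day 14 (median -0.23), none called. The summed Kupffer cell and macrophage intensities overlapped between the groups, at 12801 to 28731 in metformin and 18777 to 38781 in control livers on day 3, and at 14496 to 20182 in metformin and 9808 to 25864 in control livers on day 14. Kmo and Kynu can also be made by macrophages, and the part of these cells was not tested.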

How the data were processed

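RNA from 24 rat livers, 1 rat per array, was measured on Affymetrix arrays from 300 ng of total RNA, per the labels' protocols. The authors deposited 1 linear intensity per probe set and array, made with RMA per the submitters' processing notes; the sources used here do not name the software or how the linear scale was set. RMA normalizes between arrays and can compress fold changes. The intensities were taken to log2 as they stood. Probe sets with 1 symbol were kept (23446 of 68842), with the highest mean per gene. A gene was tested where 4 or more arrays exceeded an intensity of 19.475, which 30% of the values did not reach. A model with 1 mean per group over all 24 arrays was fitted with limma 3.58.1 in R 4.3.3 (lmFit, eBayes, two-sided, Benjamini-Hochberg over all 19686 genes). The 10 comparisons were the effect on each day, its mean, its differences between days, and control animals between days. Errors beside log2 changes are SE of the model, and n = 4 rats per group. The design text states 5 animals per group; 4 were analysed here. The number of arrays limits the precision.

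The 9 genes, the gene lists and the comparisons were chosen with earlier results of these data known. All 9 are described in each comparison. Of the other lists, genes called within a day or in the mean effect are named, and the 3 with the smallest p per day. The genes most like each of the 9 are the 3 with the highest Pearson correlation over 24 arrays, without LOC, RGD, Mir, Snor, AABR and pseudogene symbols. Alternatives were quantile and cyclic loess normalization, centring, 2 other filters, probe set averages, every probe set, 16 added to the intensity, trended moderation, a replicate block, single days, and single rats left out. Pair correlations used 100000 permutations within groups. The fit was tested on simulated data. Same-numbered metformin and control rats of a day did not deviate together (r from -0.05 to 0.09 over 12 pairs).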

Additional observations from a re-analysis of the deposited data

Results flagged for a closer look

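Of 54 groups of 4 rats checked over the 9 genes, 3 held a rat far from the other 3 by Dixon's criterion, and chance flags about 1 in 20. For Tdo2 this was control rat 3 of day 14, the lowest at 16.68. For Kmo it was metformin rat 1 of day 14, the highest at 14.59. For Qprt it was control rat 4 of day 1, the highest at 7.58.

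4 genes of the other lists had a metformin effect that differed between day 14 and day 1 in limma's test of that difference, in which 1.66% of tested genes were called. Ppara differed by -1.42 ± 0.28 (adjusted p = 0.0154), with an effect of -0.44 on day 14 and 0.98 on day 1, neither called. Parp1 differed by 0.77 ± 0.19 (adjusted p = 0.0419), Sirt2 by -0.63 ± 0.14 (adjusted p = 0.0258) and Mat1a by -0.65 ± 0.16 (adjusted p = 0.0371). Leaving out single rats took the adjusted p of Parp1 up to 0.0869 in 13 fits, of Sirt2 up to 0.063 in 7 fits and of Mat1a up to 0.0835 in 8 fits; Ppara kept its call in all 16. With every probe set tested, all 4 calls were lost (adjusted p = 0.0534 for Ppara, 0.138 for Parp1, 0.0973 for Sirt2 and 0.131 for Mat1a). The effects on Ppara, Parp1 and Sirt2 had opposite signs on day 14 and day 1. That on Mat1a was 0.01 on day 1.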

How the results depend on the processing

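For the 9 genes, the 36 results of metformin against control within days and in the mean were refitted 828 times. Of these fits 823 kept their call or lack of one, 5 gained a call, and no called value changed sign. Only the mean effect of Acmsd was called to begin with, so the count mostly covers results without a call. Some uncalled values changed sign: on day 3 Haao kept its sign in 13 of 19 alternatives, and Kmo and Qprt in 14 each. Those of Acmsd kept their sign in all. With every probe set tested, 0 of the 9 genes were called for control animals of day 14 minus day 1 and 0 for day 14 minus day 3, against 1 each in the report. With 1 rat left out, the number called was 0 to 2 for metformin on day 14, 1 to 2 for the mean effect, and 0 to 1 for each of those control comparisons. The replicate block, for numbers that do not pair the rats, gave 1 of the 9 genes for the mean effect and 0 on each day, and ended the calls of Nmnat1 on day 14 (adjusted p = 0.0514) and of the day 14 minus day 1 differences of Parp1 (0.0559) and Mat1a (0.0544). Arrays of day 14 alone ended the 5 calls of the other lists (adjusted p from 0.0762 to 0.203), as did every probe set for all but Mat1a. Every probe set also ended the mean effects of Nmnat1 (0.0506) and Gnmt (0.0836) and the 4 differences between day 14 and day 1 (0.0534 to 0.138). Centring on the median ended Nmnat3 on day 14 (0.053) and Parp1 for day 14 minus day 1 (0.0511), which was also lost with no filter (0.0501). Quantile normalization and cyclic loess ended Mat1a for day 14 minus day 1 (0.0646 and 0.0724). Counts over all genes moved widely: 0 to 14 on day 1 (3 in the report), 0 to 372 on day 3 (50), 48 to 968 on day 14 (648), 282 to 1298 for the mean (635), 63 to 547 for day 14 minus day 1 (326), 0 to 6 for day 14 minus day 3 (1), 0 to 11 for day 3 minus day 1 (0), and 94 to 207 for control day 14 minus day 3 (175). No scanner files were analysed here, so other background corrections were not run.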
